A study of Mus musculus with 6 samples.

Results

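Cytoplasmic ribosomal protein genes were followed in mouse eosinophils exposed to the cytokine IL-33. They were taken from the deposited gene table by symbol, as every Rpl or Rps gene with a number plus Rpsa, Rplp0, Rplp1 and Rplp2. The rule gave 84 of the 23420 genes in the table, 51 of the large and 33 of the small ribosomal subunit. Eosinophils were grown from wild-type mouse bone marrow, first with FLT3 ligand and stem cell factor, later in IL-5 at 20 ng/mL, and were used on day 14 after removal of dead cells. The cells of 3 libraries were exposed to 2.5 ng/mL IL-33 over 3 hours, and those of another 3 received the vehicle, phosphate-buffered saline (PBS). All 6 libraries therefore share the wild-type background, the IL-5 culture and the same RNA protocol, in which total RNA was depleted of ribosomal RNA before directional library construction. Whether the 3 libraries of each group stem from different mice or cultures is not in the labels, so every p-value reflects the spread of these libraries alone, and that spread may be technical.

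Each ribosome is built from a large and a small subunit, which hold ribosomal RNA and one copy of most ribosomal proteins, so that cells usually make these proteins in matched amounts. In mammals the messages of these genes typically begin with a run of pyrimidines, the terminal oligopyrimidine tract, through which the kinase mTOR and the RNA-binding protein Larp1 set their translation and stability. Some ribosomal proteins also act away from the ribosome, among them Rpl5 and Rpl11, which with 5S ribosomal RNA bind Mdm2 and thereby raise p53. Eosinophils are short-lived granulocytes that respond to IL-33, an alarmin released by damaged tissue, through the receptor ST2.

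The members' promoters were searched for a pyrimidine run near the transcription start. Of these promoters, 7 are printed because those genes carry the results below or lack a long run. The sequences come from the RefSeq promoter table of mouse assembly GRCm38.p6. Each spans from 25 bases before to 24 bases after the annotated start, on the gene's own strand, 5′ to 3′, with the longest unbroken run of C and T in capitals.
Rps9: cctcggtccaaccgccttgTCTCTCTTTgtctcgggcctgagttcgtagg
Rpl34: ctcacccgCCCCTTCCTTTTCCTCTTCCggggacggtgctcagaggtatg
Rpl14: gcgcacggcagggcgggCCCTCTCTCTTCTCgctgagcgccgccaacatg
Rpl5: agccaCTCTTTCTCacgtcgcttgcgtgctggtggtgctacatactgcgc
Rpl28: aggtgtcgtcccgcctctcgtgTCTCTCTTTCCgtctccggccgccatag
Rps4x: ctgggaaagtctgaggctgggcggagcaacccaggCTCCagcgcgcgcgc
Rpl24: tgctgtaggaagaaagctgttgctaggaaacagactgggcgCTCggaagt
These windows lie at chr7:3704016-3704065 (plus strand) for Rps9, chr3:130730313-130730362 (minus strand) for Rpl34, chr9:120571492-120571541 (plus strand) for Rpl14, chr5:107900503-107900552 (plus strand) for Rpl5, chr7:4792940-4792989 (plus strand) for Rpl28, chrX:102189367-102189416 (minus strand) for Rps4x and chr16:55966250-55966299 (plus strand) for Rpl24. The longest run had 9 bases in Rps9, 20 in Rpl34, 14 in Rpl14, 9 in Rpl5 and 11 in Rpl28, against 4 in Rps4x and 3 in Rpl24. The run of Rpl5 lay at −20 to −12, wholly before the annotated start. Those of Rps9, Rpl34, Rpl14 and Rpl28 spanned the start. Rpl34 has another annotated start, not printed here, whose longest run had 8 bases at −13 to −6, wholly before that start. Rps9 and Rpl34 were called higher with IL-33 and the other 5 were called lower, so genes with a long run stood on both sides. In all, 63 members matched at least 1 of 75 promoters in the table. A run of at least 8 C or T lay within this window of 23 of 46 large subunit promoters (50.0%) and 11 of 29 small subunit promoters (37.9%), against 6463 of 32847 promoters of all genes (19.7%). On the same strand, a run of at least 8 A or G lay in 8.0% of the members' windows and in 21.6% of all windows. By call, at least 1 window with the pyrimidine run was found for 2 of 3 matched members called higher, 5 of 9 called lower and 24 of 47 not called. These counts describe letters near annotated starts only, wherever in the window the run lay, so a counted run need not begin a message.

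Depth and 2 of the libraries need to be known before the values. Between 8218303 and 10785521 reads were recovered per library from the normalized counts, which are whole reads divided by 1 factor per library. Rn45s, which encodes the ribosomal RNA precursor, made up 24.3%, 59.6% and 54.8% of IL-33 replicates 1 to 3, against 24.8%, 23.3% and 13.7% of PBS replicates 1 to 3. IL-33 replicates 2 and 3 therefore kept 4355586 and 4229504 reads for other genes, and the other 4 libraries kept 6592044 to 7129435. Of the 11 eosinophil markers in the table, Ear2 was at 0 in IL-33 replicates 2 and 3, and the others had reads in every library. Of these 11, all tested, 9 were lower and 1, Gata1, was higher with IL-33. Gata1 had 2748 to 5774 normalized counts with IL-33 and 1307 to 1460 with PBS. The summed normalized counts of the 11 were 24617 to 35154 in IL-33 libraries and 52876 to 63914 in PBS libraries. Macrophage and dendritic cell markers, led by Emr1, summed to 25969 to 32475 with IL-33 and 8613 to 11553 with PBS, with 5 of 10 tested called higher and 0 lower. Emr1 alone had 19139 to 26459 with IL-33 and 6636 to 8913 with PBS. The sum of this list thus follows mostly 1 gene and does not measure how many such cells were present. Cd68, Mrc1 and H2-Aa of the same list overlapped between the groups. The mast cell and basophil list, mostly Hdc, summed to 2708 to 4267 with IL-33 and 1772 to 3245 with PBS, the neutrophil list to 2307 to 3029 and 2912 to 3588, and the lymphoid list to 33.9 to 59.3 and 53.8 to 69.9. In these 3 lists, 0 markers were called higher and 2 of 7, 4 of 10 and 0 of 1 tested were called lower. Mcpt4 and Ncr1 were listed at 0 in every library. The part of the Rn45s share and of other cell types in the results below was not tested. In these bulk libraries, fewer cells of a type and less RNA per cell cannot be told apart.

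Summed over their members, both subunits took a smaller share of the reads in every IL-33 library than in any PBS library, on a scale where 45% of all genes tested did so too. Outside Rn45s, large subunit genes took 0.488%, 0.358% and 0.273% of reads in IL-33 replicates 1 to 3, against 0.600%, 0.598% and 0.562% in PBS replicates 1 to 3. Small subunit genes took 0.524%, 0.476% and 0.401% with IL-33, against 0.604%, 0.582% and 0.552% with PBS. The groups did not overlap for either subunit, IL-33 replicate 3 was the lowest, and IL-33 replicate 1 lay nearest to PBS. The ratio of the mean shares, IL-33 over PBS, was 0.635 for the large and 0.806 for the small subunit. On this scale most genes were lower, with 45% of single genes below and 12.4% above PBS in every IL-33 library and a median log2 fold change of −0.46 over all genes, so a lower share is by itself not particular to the members. With 3 libraries a group, an exact permutation test cannot give a two-sided p below 0.1, so none is given.

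**Figure D1:**
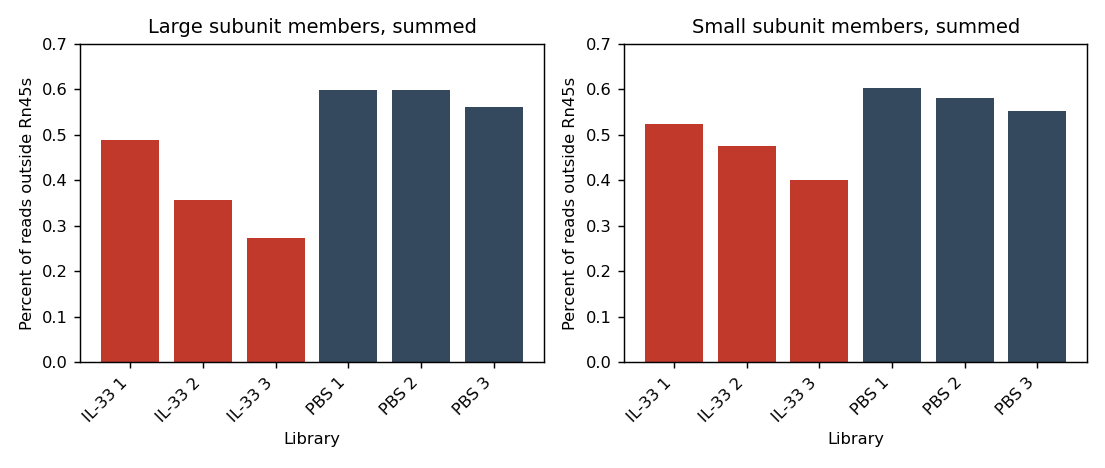
Reads of the large subunit members (left) and small subunit members (right) as a percent of all reads outside Rn45s, in each IL-33 library (red) and each PBS library (dark blue). In both panels all 3 IL-33 bars are shorter than every PBS bar, and that of IL-33 replicate 3 is the shortest.

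On the authors' normalized counts, which scale each library by 1 factor, the sums of the groups lay closer together. The large subunit summed to 31283, 23965 and 19548 in IL-33 replicates 1, 2 and 3, against 30705, 29995 and 27870 in the PBS replicates, or 24932 ± 5927 and 29523 ± 1475 (SD, n = 3 each), a ratio of 0.844. IL-33 replicate 1 was above all PBS libraries and the other IL-33 libraries were below them, so the groups overlapped. The small subunit summed to 33564, 31869 and 28732 with IL-33 and to 30896, 29200 and 27364 with PBS, or 31388 ± 2452 and 29153 ± 1766 (SD, n = 3 each), a ratio of 1.08, and the groups again overlapped. Much of this sum came from Rps3, Rps14 and Rps9, which took 45.7%, 57.0% and 61.5% of it in IL-33 replicates 1 to 3, against 41.9%, 39.4% and 39.9% in the PBS replicates.

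The levels of single members spanned a wide range, as shown by normalized count per kb of the annotated transcript. In IL-33 libraries the mean level per kb of the 47 large subunit members tested had a median of 211 and reached 5145, and in PBS libraries it had a median of 466 and reached 3702. Rpl41, which encodes the smallest ribosomal protein, was the highest large subunit gene, followed by Rpl37a at 3174 with IL-33 and 2711 with PBS, Rplp1 at 2217 and 2007, and Rpl13a at 2108 and 2159. In the small subunit, Rps14 stood at 7480.1 per kb with IL-33 and 6381 with PBS, Rps9 at 7123 and 3444, Rps3 at 3522 and 2592, and Rps27a at 2021 and 1443. The lowest tested members per kb were Rpl3l in the large subunit, at 22.9 with IL-33 and 6.66 with PBS, and Rps27l in the small subunit, at 28.3 and 51.5.

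**Figure D2:**
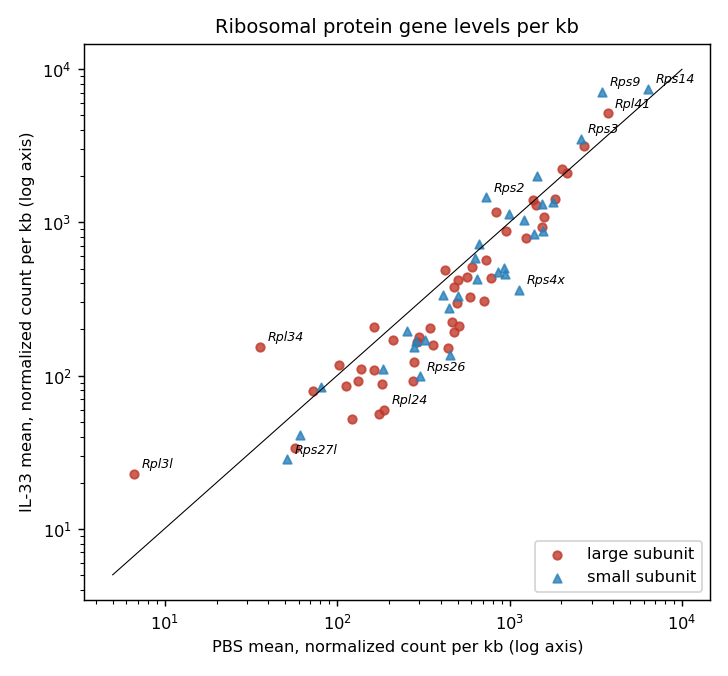
Mean normalized count per kb of transcript in IL-33 libraries (vertical, log axis) against PBS libraries (horizontal, log axis) for the 78 members tested, with circles for the large and triangles for the small subunit. Most points lie below the line of equal levels, while Rps9, Rps14, Rpl41 and Rps3 at the upper end and Rpl34 and Rpl3l at the lower end lie above it on the authors' scaling; with equal totals, Rn45s included, only Rpl34 and Rpl3l keep a positive difference.

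Of the 84 members, 78 passed the filter of a normalized count of at least 10 in at least 3 libraries and were tested with limma over all 10544 genes that passed. With IL-33, 2 of 47 large subunit members were called higher, 12 were called lower and 33 were not called, at a Benjamini-Hochberg adjusted p under 0.05. Of 31 small subunit members, 1 was called higher, 2 were called lower and 28 were not called. Over all genes tested, 17.4% were called higher and 14.4% lower. The members' share called higher, 3.85% over both subunits, was thus below the background, and their share called lower was 25.5% in the large subunit, 6.45% in the small one and 17.9% over both. The median log2 fold change, IL-33 minus PBS on the log2(normalized count + 1) scale, was −0.62 over the large subunit (range −2.30 to 1.97) and −0.73 over the small subunit (range −2.58 to 1.00), beside −0.03 over all genes tested. It was negative for 36 large and 23 small subunit members. Every IL-33 library lay below every PBS library for 16 large and 5 small subunit members, together 26.9% of those tested beside 24.7% of all genes, and above for 4 and 3, together 8.97% beside 25.5%.

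The 3 IL-33 libraries differed from each other more than the PBS libraries did. The SD over replicates of a member's log2 value had a median of 0.65 in the IL-33 group and 0.18 in the PBS group, beside 0.40 and 0.17 over all genes tested. Set against the PBS mean, the median large subunit member stood at −0.00, −0.67 and −1.07 (log2) in IL-33 replicates 1 to 3, and the median small subunit member at 0.17, −0.82 and −1.14. All genes tested had medians of 0.01, −0.03 and −0.03 in the same libraries. No member lay at least 1 log2 unit below the PBS mean in IL-33 replicate 1, where 9.96% of all genes did. In IL-33 replicate 2 this held for 19 of 47 large (40.4%) and 14 of 31 small subunit members (45.2%), beside 14.9% of all genes. In IL-33 replicate 3 it held for 25 large (53.2%) and 17 small subunit members (54.8%), beside 20.5%. IL-33 replicates 2 and 3 are also the libraries with the high Rn45s share. Among the 3 IL-33 libraries, a member was lowest in replicate 3 in 56 of 78 cases (71.8%), beside 37.3% of all genes, and highest in replicate 1 in 67 cases (85.9%), beside 41.7%. Replicates 2 and 3 both lay below every PBS library for 54 members (69.2%), beside 36.8% of all genes, and both above for 9 (11.5%), beside 35.7%. The first principal component of the tested members carried 91.0% of their variance and gave −3.14, 6.20 and 10.5 to IL-33 replicates 1, 2 and 3, and −3.94, −4.60 and −5.02 to the PBS replicates.

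**Figure D3:**
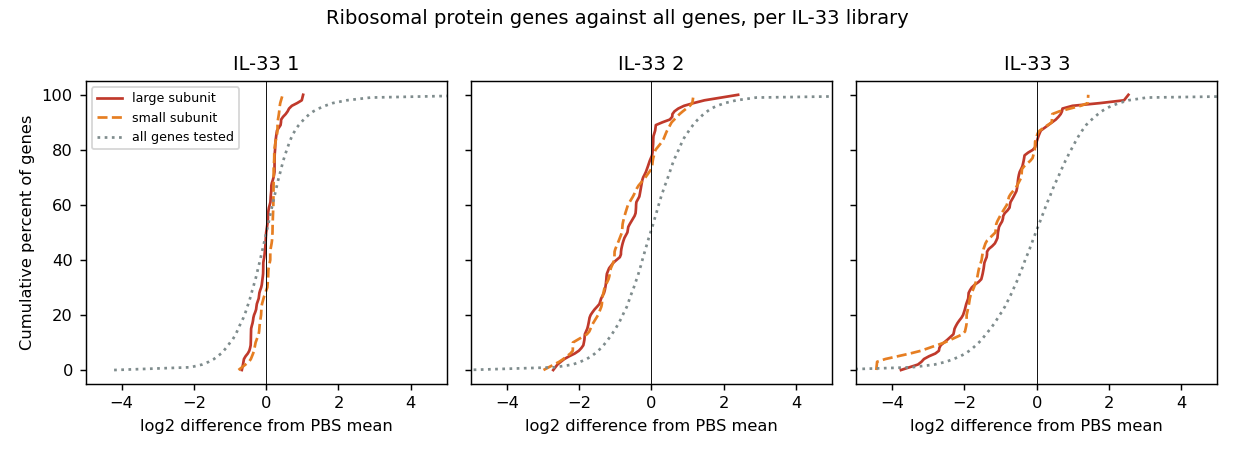
Cumulative percent of genes (vertical) by log2 difference of 1 IL-33 library from the mean of the PBS libraries (horizontal), for IL-33 replicates 1, 2 and 3, with the large subunit as a solid, the small subunit as a dashed and all tested genes as a dotted line. In IL-33 replicate 1 the members stand in a narrow band around 0, with medians of −0.00 and 0.17, and in replicates 2 and 3 both subunits are shifted to the left of all genes.

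**Figure D4:**
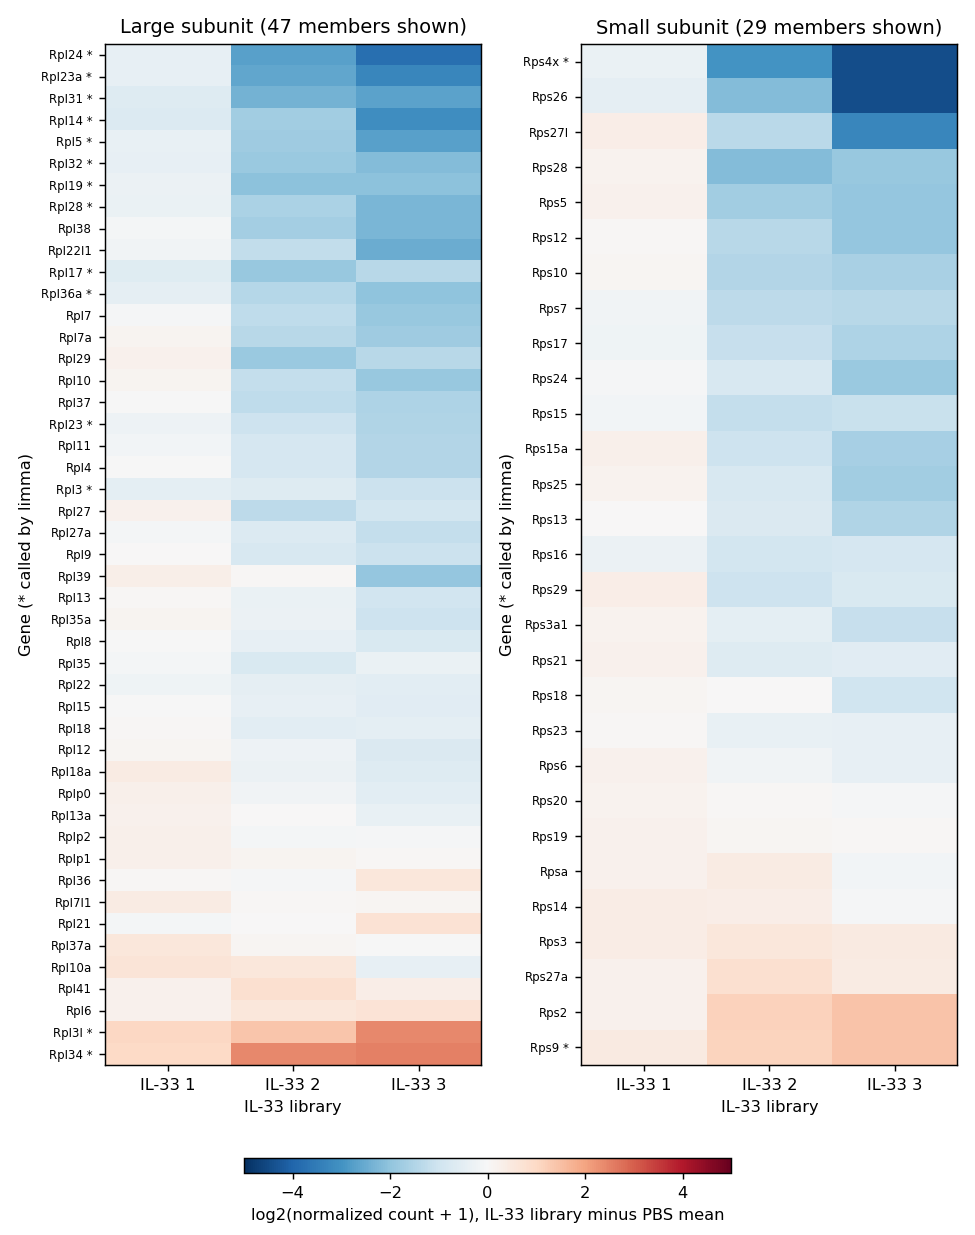
Log2 difference of each IL-33 library (columns) from the PBS mean for tested members (rows, 47 of the large and 29 of the 31 of the small subunit), ordered by fold change within the large (left) and small subunit (right); blue is lower with IL-33, red higher, and an asterisk marks a call. Blue deepens in the columns of IL-33 replicates 2 and 3 for most rows, and the bottom rows, among them Rpl34, Rpl3l, Rps9 and Rps2, are red on the authors' scaling, on which Rps9 and Rps2 differ from equal totals, Rn45s included (−0.04 and −0.12).

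The calls depended on which libraries were kept. Without IL-33 replicate 1, 8 members were called higher and 53 lower, beside 28% and 28.4% of all genes, and the 53 included all 14 members called lower with every library. Without IL-33 replicate 2, limma called 0 members in either direction (15 at an unadjusted p under 0.05), beside 8.43% of all genes higher and 7.23% lower. Without IL-33 replicate 3, 2 members were higher and 3 lower, Rpl14 and Rpl17 among them, beside 13.5% and 11.6%. Leaving out a PBS library also cost calls. Without PBS replicate 1, 2 members were higher and 1 lower, beside 10.8% and 5.78% of all genes. Without PBS replicate 2, 1 was higher (Rpl34) and 0 lower (22 at an unadjusted p under 0.05), beside 7.6% and 3.47%. Without PBS replicate 3, 0 were called (19 at an unadjusted p under 0.05), beside 6.74% and 3.08%. IL-33 replicate 1 alone against PBS, where the lone library is assumed to vary as the PBS libraries do, gave 2 members higher (Rpl10a and Rpl37a) and 3 lower, Rpl14 and Rpl3 among them, beside 18.8% of all genes in each direction. With each library's Rn45s share as a covariate, limma called 0 members (1 at an unadjusted p under 0.05), beside 8.67% of all genes higher and 6.09% lower, and the median fold change was −0.01 over the large and 0.11 over the small subunit. That share was high only in IL-33 replicates 2 and 3, so this fit can hardly separate it from an effect of IL-33.

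Scaling and test also mattered. With every library scaled to the same total outside Rn45s, 1 member was higher and 43 lower, beside 8.91% and 34% of all genes, and the median of all genes itself moved to −0.46, with the members' at −1.07. Of all calls, 20.8% were then higher, beside 54.7% on the authors' scaling. On the recovered reads, edgeR called 4 members higher and 6 lower, beside 18.1% and 14% of all genes, and DESeq2 called 5 higher and 13 lower, beside 21.2% and 15.4%. The 3 members called higher by limma, Rpl34, Rpl3l and Rps9, were also called higher by both, and Rps2 was added by both. Positive fold changes in particular depended on the scaling. Of the 19 members with a positive value on the authors' scaling, 17 turned negative with equal totals, Rn45s included, 11 with equal totals outside Rn45s, 9 with quantile normalization and 0 with TMM scaling, while no negative value turned positive under these 4. Equal totals, Rn45s included, moved the median of all genes to −1.08, and only Rpl34 and Rpl3l kept a positive value there.

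In the large subunit, Rpl24, Rpl23a, Rpl31 and Rpl14 fell most. Rpl24, the gene mutated in the Belly spot and tail mouse, had 94.4, 18.5 and 8.47 normalized counts in IL-33 replicates 1 to 3, against 120.4, 121 and 141 in the PBS replicates. Only 12 and 5 reads stood behind the values of IL-33 replicates 2 and 3. The groups did not overlap, and the log2 fold change was −2.30 (SE 0.71, adjusted p 0.041, limma). Rpl23a (chr11:78180932-78183584, minus strand, as in GENCODE vM21 on GRCm38), which lies at the exit of the peptide tunnel, had 114, 24.6 and 15.3 with IL-33 and 131, 167 and 165 with PBS. It fell by 2.09 on the log2 scale (SE 0.63, adjusted p 0.037). Again IL-33 replicate 1 was close to PBS and the other IL-33 libraries far below. Rpl31 (chr1:39367842-39371911, plus strand), another tunnel exit protein, had 115, 33.8 and 27.1 with IL-33 and 146, 172 and 231 with PBS. It fell by 1.90 (SE 0.50, adjusted p 0.023), also with no overlap. Rpl14 had 277, 132 and 50.8 with IL-33 and 389, 511 and 435 with PBS. It fell by 1.84 (SE 0.52, adjusted p 0.030), with every IL-33 library well below PBS, and it stayed called with IL-33 replicate 1 alone (adjusted p 0.012). With any 1 of the libraries other than IL-33 replicate 1 left out, the adjusted p passed 0.05 for Rpl24 (0.082 to 0.13), Rpl23a (0.081 to 0.13) and Rpl31 (0.053 to 0.10), and for Rpl14 it was 0.029 without IL-33 replicate 3 and 0.077 to 0.10 otherwise. By edgeR, Rpl24 was at −1.55 (adjusted p 0.089) and Rpl23a at −1.51 (adjusted p 0.078), neither called, while Rpl31 (adjusted p 0.038) and Rpl14 (0.041) were, and DESeq2 called all 4. Exons of other annotated genes cover 47.0% of Rpl24's exons (Gm28037), 62.3% of Rpl23a's (Tlcd1 and Snord42b) and 25.3% of Rpl31's (Tbc1d8), and whether reads were counted by strand is not given in the sources used here, so reads of these pairs may not be told apart. The exons of Rpl14 overlap no other gene. Stretches of 50 bases found in no other annotated gene made up 18.3% of Rpl24, 14.3% of Rpl23a, 30% of Rpl31 and 50.7% of Rpl14.

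The remaining lower calls of the large subunit were Rpl5, Rpl3, Rpl32, Rpl19, Rpl28, Rpl17, Rpl36a and Rpl23, the last 6 named after their values were seen. Rpl5 had 752, 285 and 147 normalized counts in IL-33 replicates 1 to 3, against 902, 1026 and 993 in the PBS replicates. The groups did not overlap, and Rpl5 fell by 1.62 (SE 0.50, adjusted p 0.039, limma). Its partner in the 5S particle, Rpl11, had 1169, 712 and 468 with IL-33 and 1249.5, 1249 and 1334 with PBS. Every IL-33 value was again the lower, but Rpl11 was not called (log2 fold change −0.81, SE 0.30, adjusted p 0.071). Rpl3, which lies near the peptidyl transferase centre, had 477, 426 and 312 with IL-33 and 705, 720 and 577 with PBS. It fell by 0.74 (SE 0.21, adjusted p 0.030), and of the lower calls it had the smallest change and nearly even IL-33 values in replicates 1 and 2. The other 6 fell by 0.94 to 1.48, with adjusted p between 0.022 and 0.0495. With any 1 library other than IL-33 replicate 1 left out, Rpl5 had an adjusted p of 0.066 to 0.12 and Rpl3 one of 0.054 to 0.12, and of the other 6 only Rpl17 stayed called, without IL-33 replicate 3 (adjusted p 0.044). By edgeR, Rpl5 (−1.30, adjusted p 0.070), Rpl19 (0.070), Rpl28 (0.060), Rpl36a (0.052) and Rpl23 (0.061) were not called, while Rpl3, Rpl32 and Rpl17 were, and DESeq2 called all 8. Exons of Fam69a and Snord21 cover 26.7% of the exons of Rpl5, and 6.16% of its 50-base stretches occur in no other annotated gene, so the placement of its reads is uncertain too. Other genes cover 20.0% of the exons of Rpl32, 11.4% of those of Rpl19, 9.95% of those of Rpl28 and 2.93% of those of Rpl3. The unique share of 50-base stretches was 14.4% in Rpl3, 14.5% in Rpl36a, 20.7% in Rpl19 and 21.3% in Rpl17. For Rpl28, Rpl23 and Rpl32 it was 52.6%, 65.2% and 69.4%.

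The genes called higher in the large subunit were Rpl34 and Rpl3l, both at low levels. Rpl34 had 43.2, 117 and 129 normalized counts in IL-33 replicates 1 to 3, against 26.4, 27.6 and 13.3 in the PBS replicates, from 48, 76 and 76 reads and 34, 38 and 19 reads. The groups did not overlap, and IL-33 replicates 2 and 3 were the highest. Its log2 fold change was 1.97 (SE 0.47, adjusted p 0.0165, limma), with adjusted p of 0.070 without IL-33 replicate 2 and of 0.076 when PBS replicate 3 was removed. Rpl3l, a paralogue of Rpl3 known from heart and skeletal muscle (chr17:24727820-24736143, plus strand), had 18.9, 24.6 and 50.8 with IL-33 and 13.2, 7.28 and 6.99 with PBS. Between 10 and 30 reads stood behind each value. It rose by 1.60 (SE 0.45, adjusted p 0.030), with no overlap between the groups, while the adjusted p was 0.065 to 0.12 when replicate 2 or 3 of either group was left out. Rpl3 itself fell, so the 2 paralogues were called in opposite directions. Per kb, Rpl3l averaged 22.9 normalized counts with IL-33 and 6.66 with PBS, against 299.6 and 494 for Rpl3.

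The stalk proteins Rplp0, Rplp1 and Rplp2, which recruit the GTPases of translation to the large subunit, showed no call. Rplp0 had 2287, 1716 and 1327 normalized counts in IL-33 replicates 1 to 3, against 2135, 1865 and 1774 in the PBS replicates, with a log2 fold change of −0.15 (SE 0.22). Rplp1 and Rplp2 had fold changes of 0.15 (SE 0.16) and 0.03 (SE 0.17), which turned to −0.89 and −1.01 with libraries scaled to equal totals, Rn45s included, and to −0.28 and −0.39 with Rn45s left out. For each of the 3 the groups overlapped. Rpl41 had 2518, 3760 and 2705 with IL-33 and 2384, 2164 and 1916 with PBS. Its IL-33 values were all the higher, yet it was not called (0.46, SE 0.19, adjusted p 0.10). Rpl6 (0.50, SE 0.21), Rpl37a (0.22, SE 0.21) and Rpl13a, whose protein also represses inflammatory messages in myeloid cells (−0.05, SE 0.19), were not called either. With equal totals, Rn45s included, Rpl41, Rpl6 and Rpl37a turned to −0.58, −0.54 and −0.82. Rpl10, which joins the large subunit late in its assembly, had 278, 112 and 67.8 with IL-33 and 263, 248 and 253 with PBS. It was above PBS in IL-33 replicate 1 and far below in the other IL-33 libraries, and was not called (−0.98, SE 0.44, adjusted p 0.12). Rpl39 split further, with 455, 383 and 94.9 against 426, 349 and 341, so that IL-33 replicate 3 alone lay below PBS (−0.54, SE 0.52).

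Paralogue pairs could be compared where both members passed the filter. Rpl22 had 199.6, 169 and 161 normalized counts in IL-33 replicates 1 to 3, against 207, 259 and 229 in the PBS replicates (log2 fold change −0.39, SE 0.19, adjusted p 0.14). Its paralogue Rpl22l1 had 87.2, 41.5 and 17.0 with IL-33 and 117, 97.5 and 86.0 with PBS (−1.30, SE 0.51, adjusted p 0.082). Both were lower in IL-33 replicates 2 and 3 than in any PBS library, and neither was called. Rpl7 had 878, 381 and 246 with IL-33 and 944, 792 and 1005 with PBS (−1.06, SE 0.41, adjusted p 0.077). Its paralogue Rpl7l1 had 357, 277 and 288 with IL-33 and 269, 261 and 273 with PBS (0.19, SE 0.18, adjusted p 0.42). Rpl7l1 was thus higher in every IL-33 library than in any PBS library, by a small amount, where Rpl7 was far below PBS in IL-33 replicates 2 and 3. That direction of Rpl7l1 holds on the authors' scaling, and its fold change was −0.23 with equal totals outside Rn45s and −0.85 with Rn45s included. The difference between paralogues was not tested.

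In the small subunit, on the authors' scaling, Rps4x fell and Rps9 rose. Rps4x, the X-linked gene of a core small subunit protein, had 871, 138 and 50.8 normalized counts in IL-33 replicates 1 to 3, against 1046, 1096 and 1176 in the PBS replicates. These came from 969, 90 and 30 reads with IL-33 and from 1347, 1507 and 1683 with PBS. Of its 50-base stretches, 27.8% occur in no other annotated gene. IL-33 replicate 1 lay just below PBS and the other IL-33 libraries far below it. Its log2 fold change of −2.58 (SE 0.84) was the lowest of all members and only just called (adjusted p 0.0475, limma), and the adjusted p was 0.0925 to 0.149 without any 1 library other than IL-33 replicate 1, 0.14 by edgeR and 0.22 by DESeq2.

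**Figure D5:**
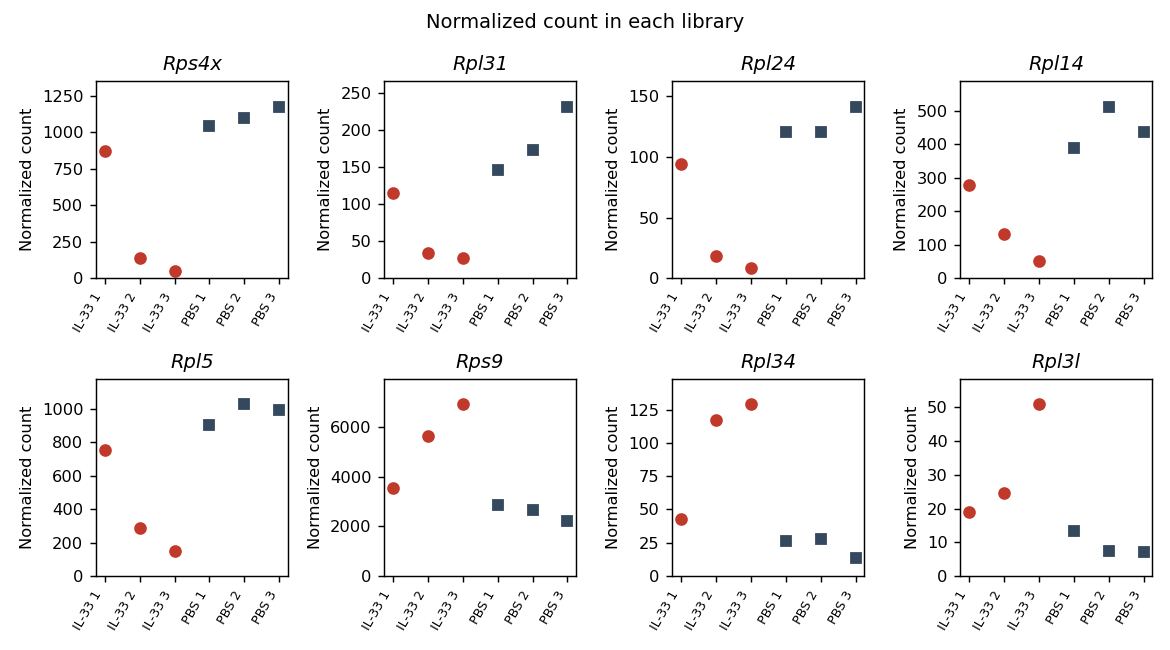
Normalized count in each IL-33 library (red circles) and each PBS library (dark blue squares) for 8 members, each on its own vertical axis that starts at 0. Rps4x, Rpl31, Rpl24, Rpl14 and Rpl5 are lower in every IL-33 library than in any PBS library, with replicate 1 nearest to PBS, and Rps9, Rpl34 and Rpl3l are higher, Rps9 not so with equal totals, Rn45s included (−0.04).

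Rps9, which helps to set the accuracy of decoding, had 3524, 5618 and 6905 normalized counts in IL-33 replicates 1 to 3, against 2864, 2676 and 2220 in the PBS replicates. The groups did not overlap, and IL-33 replicates 2 and 3 were again farthest from PBS, here on the upper side. Rps9 rose by 1.00 (SE 0.25, adjusted p 0.020, limma) on the authors' scaling, whereas the difference was −0.04 with libraries scaled to equal totals, Rn45s included, and the call was lost with quantile normalization (adjusted p 0.13). The adjusted p was 0.053 to 0.098 without IL-33 replicate 2 or any 1 PBS library. Rps2, its neighbour in fold change, had 908, 1772 and 2105 with IL-33 and 904, 896 and 609 with PBS. It was not called by limma (0.93, SE 0.32, adjusted p 0.0565), and it was called by edgeR (adjusted p 0.043) and DESeq2 (0.015), while equal totals, Rn45s included, turned it to −0.12. Rps3, which also has a role in NF-κB binding to DNA, had 6289, 7237 and 6635 with IL-33 and 5692, 4674 and 4472 with PBS. Every IL-33 library was the higher, yet Rps3 was not called by limma (0.45, SE 0.16, adjusted p 0.062). DESeq2 called it higher (adjusted p 0.043), as did limma with length and GC trends removed (0.041), and equal totals, Rn45s included, turned it to −0.59.

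The other small subunit genes named here were not called. Rps26, one of the genes mutated in Diamond-Blackfan anaemia, had 150.1, 44.6 and 8.47 normalized counts in IL-33 replicates 1 to 3, against 196, 191 and 229 in the PBS replicates. No IL-33 library reached PBS, and it was not called (−2.35, SE 0.83, adjusted p 0.059, limma). Rps15 (−0.81), whose IL-33 libraries also all lay below PBS, was not called. Rps27l, a paralogue of Rps27 and a p53 target, had 31.5, 9.23 and 1.69 with IL-33 and 18.6, 27.6 and 30.8 with PBS, the value of IL-33 replicate 3 being 1 read (−1.44, SE 0.79, adjusted p 0.19). Rps27a, which encodes a fusion of ubiquitin with a ribosomal protein, had 1307, 1978 and 1512 with IL-33 and 1117, 1323 and 985 with PBS (0.47, SE 0.20, adjusted p 0.10). The groups overlapped only through IL-33 replicate 1, and equal totals, Rn45s included, turned Rps27a to −0.57. Rps6, the S6 kinase substrate (−0.13, SE 0.22), Rps14, the gene lost in the human 5q− syndrome (0.22, SE 0.16), Rps19, the most often mutated gene in Diamond-Blackfan anaemia (0.13, SE 0.18), and Rpsa, also known as the laminin receptor (0.17, SE 0.19), were not called, and their ranges overlapped between the groups. The positive values of Rps14, Rps19 and Rpsa turned negative with equal totals, with or without Rn45s.

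Below the filter stood 6 members. Rpl10l, Rpl39l and Rpl26 were listed at 0 in every library. Rpl10l and Rpl39l are paralogues known from the testis, while Rpl26 is a core gene of every ribosome. Rpl30, another core gene, had 1, 3 and 1 reads in IL-33 replicates 1 to 3, against 0, 1 and 0 in the PBS replicates. Rps27 had 4, 1 and 7 reads with IL-33 and 6, 8 and 6 with PBS. Rps4y2, whose row matches the annotated pseudogene Rps4l through an older symbol, had 3, 3 and 2 reads against 8, 8 and 9. These counts were too low for a comparison. In the annotation, 39.0% of the 50-base stretches of the Rpl26 transcript, 20.8% of those of Rpl30 and 1.35% of those of Rps27 occur in no other annotated gene, beside a range of 4.91% to 100% over the tested members. A read from a shared stretch cannot be placed by sequence alone, so the level of such genes depends on how the authors' counting treated these reads.

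Rps27 shows what such copies look like. The first 60 coding bases of Rps27, of its intronless copy Rps27rt and of Rps27l, read from the GENCODE vM21 transcripts (GRCm38), are given with the bases of Rps27l that differ from Rps27 in capitals.
Rps27: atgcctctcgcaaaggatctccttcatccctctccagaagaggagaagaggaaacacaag
Rps27rt: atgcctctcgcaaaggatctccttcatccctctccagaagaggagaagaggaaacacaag
Rps27l: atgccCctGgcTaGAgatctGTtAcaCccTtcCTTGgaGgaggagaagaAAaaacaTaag
Rps27 (chr3:90212522-90213651, minus strand) and Rps27rt (chr9:114982366-114982739, minus strand) agreed at all 255 coding bases, whereas Rps27l (chr9:66946086-66949516, plus strand) differed at 18 of the 60 bases shown and shared 194 of 255 (76.1%). The count of Rps27l therefore rests on sequence that differs from Rps27, while Rps27 and Rps27rt cannot be told apart over these coding bases. Rps27rt was not analysed here.

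Across members, the fold change was set beside properties of the gene as a description, since members share libraries and depth. Spearman's rho of the log2 fold change with the GC content of the transcript was 0.37 over 47 large and 0.01 over 31 small subunit members, beside 0.29 over 10437 genes with an annotated transcript. With transcript length it was 0.18 and 0.28, beside −0.04. With the share of unique 50-base stretches it was 0.36 and 0.04. With the mean level in PBS libraries it was 0.21 and 0.49. Members had short transcripts, with a median of 855 bases in the large and 791 in the small subunit, beside 2942 over all genes tested.

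Of 4 ribosomal protein genes tested outside the naming pattern, 1 was called higher and 1 lower, beside 17.4% and 14.4% of all genes tested. So few genes allow no comparison with these shares. Fau, a fusion of a ubiquitin-like protein with a small subunit protein, had 2227, 2295 and 2041 normalized counts in IL-33 replicates 1 to 3, against 1726, 1216 and 1255 in the PBS replicates. It rose by 0.66 (SE 0.18, adjusted p 0.027, limma), with no overlap and even values among the IL-33 libraries. Rpl36al (−1.08, SE 0.51) and Gnb2l1, the older symbol of the ribosome scaffold Rack1 (−0.63, SE 0.33), were not called. Fau turned to −0.38 with libraries scaled to equal totals, Rn45s included, and its adjusted p was above 0.05 with IL-33 replicate 2 or with PBS replicate 2 or 3 left out (up to 0.13).

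Mitochondrial ribosomal protein genes, which build the separate ribosome of that organelle, were called in both directions, 5 of 70 tested higher and 5 lower, with a median of −0.12, beside 17.4% higher and 14.4% lower over all genes tested, a background that also stands for the lists that follow. Their medians in IL-33 replicates 1, 2 and 3 were −0.02, −0.13 and −0.21, beside 0.06, −0.78 and −1.10 for the cytoplasmic members of both subunits. Mrpl38 (1.55, SE 0.33), Mrpl12 (1.19, SE 0.37) and Mrps30 (1.14, SE 0.27) rose most, and Mrps16 (−1.44, SE 0.33), Mrpl1 (−1.43, SE 0.45) and Mrpl30 (−1.31, SE 0.38) fell most. Of 11 elongation and termination genes tested, Eif5a, which helps ribosomes past difficult peptide bonds, rose by 0.91 (SE 0.18) and Eef2k, the kinase that inhibits elongation factor 2, fell by 1.42 (SE 0.28), with a median of 0.07. Among 45 initiation genes tested, 8 were higher and 4 lower, with a median of −0.09, the higher calls thus near the share over all genes. Eif6, which keeps the subunits apart (1.47, SE 0.22), Eif4g1, the scaffold of the cap complex (1.04, SE 0.19), and Eif3a (1.03, SE 0.25) rose most. Eif2ak4, the amino acid sensor Gcn2 (−1.49, SE 0.21), Eif2b1 (−1.21, SE 0.38) and Eif3f (−0.90, SE 0.27) fell most. Eef2k, Eif6, Eif4g1 and Eif2ak4 stayed called when any 1 library was left out, on the authors' scaling. The other genes named here did not, with an adjusted p of at most 0.16 when 1 library was left out, and Mrpl1 was not called by edgeR (0.074) nor Mrpl30 by DESeq2 (0.052). Eif5a and Eif3a turned to −0.13 and −0.01 with equal totals, Rn45s included.

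Genes that act on pyrimidine-tract messages were called in both directions, 4 higher and 4 lower of 14 tested, with a median of 0.07, beside 17.4% higher and 14.4% lower over all genes tested. Larp1, which binds the tract, had 1112, 1499 and 1756 normalized counts in IL-33 replicates 1 to 3, against 677, 729.8 and 661 in the PBS replicates. It rose by 1.05 (SE 0.20, adjusted p 0.0070, limma), with every IL-33 library above PBS. Rheb, the GTPase that activates mTOR, had 1136, 1201 and 1107 with IL-33 and 506, 490.4 and 446 with PBS, and rose by 1.26 (SE 0.15, adjusted p 0.0012). Cnbp (1.40, SE 0.20) and Akt1s1, an inhibitor within the mTOR complex (1.06, SE 0.28), also rose, while Tia1 (−1.41, SE 0.27), Mlst8 (−0.94, SE 0.27), Tial1 and Tsc2 fell. In the p53 list, Cdkn1a, a p53 target that halts the cell cycle, had 2027, 2130 and 2354 with IL-33 and 565, 402 and 333 with PBS. It rose by 2.36 (SE 0.21, adjusted p 0.000345), and Mdm2, the partner of Rpl5 and Rpl11 and itself a p53 target, rose by 0.75 (SE 0.16, adjusted p 0.012). Trp53 (0.25, SE 0.23) and Mdm4 (−0.89, SE 0.39) were not called. Larp1, Rheb, Cnbp and Cdkn1a stayed called when any 1 library was left out, on the authors' scaling. Equal totals, Rn45s included, moved the median of all genes from −0.03 to −1.08. Mdm2 had an adjusted p of up to 0.076 without PBS replicate 2 or 3, and turned to −0.30 with equal totals, Rn45s included. Akt1s1, Tia1, Mlst8, Tial1 and Tsc2 each lost the call without PBS replicate 3, and their adjusted p was at most 0.17 when 1 library was left out.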

How the data were processed

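The 1 table that the authors deposited holds normalized counts per gene, a signal made by dividing each library's whole read counts by 1 factor. HISAT2, HTSeq and DESeq2 with genome build mm10 are named, per the submitters' processing notes, with versions, annotation and use of strand not given in the sources used here. Values were whole multiples of each library's smallest value, and 100% came out as whole reads within 0.1 of a read, which gave the depth and the reads for edgeR and DESeq2.

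Members, lists and tests were chosen with earlier results of these data known. Named members were, per subunit, the 4 with the highest level per kb, the 4 largest and 4 smallest fold changes, any call where at most 5 were called in a direction, a list always included and all members below the filter; from other lists, up to 3 calls per direction. Tests used limma 3.58.1 in R 4.3.3 (eBayes, mean-variance trend) on IL-33 minus PBS differences of log2(normalized count + 1), two-sided, with Benjamini-Hochberg adjustment over all genes with a normalized count of at least 10 in at least 3 libraries. This scale understates changes of low genes. Counting error behind low counts covers reads, which are not independent molecules.

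Alternatives were pseudocounts of 0.5 and 5, no filter, a filter at 50, TMM scaling, equal totals with and without Rn45s, quantile normalization, no trend, DESeq2 1.42.0 and edgeR 4.0.16 (quasi-likelihood), the replicate number as a block, removal of length and GC trends (splines with 5 degrees of freedom), the Rn45s share as a covariate, and each library left out. Of 23420 symbols, 23012 matched GENCODE vM21 (GRCm38), 1275 through an older symbol, and 10437 of the genes tested had a transcript length and GC content. Results of a few genes are not reported here, though they stay in the counts and sums.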

Additional observations from a re-analysis of the deposited data

How the results depend on the processing

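The numbers of members called moved with most settings. The median over members, −0.65 in the main fit, stayed at −0.62 to −0.68 with the other pseudocounts, filters and TMM scaling. Across all settings it ranged from −1.68 with equal totals, Rn45s included, to 0.06 with IL-33 replicate 1 alone. Without 1 library at a time, large subunit calls were 0 to 4 higher and 0 to 32 lower, small subunit calls 0 to 4 and 0 to 21, and all genes 695 to 2910 higher and 318 to 2950 lower. With equal totals, Rn45s included, 0 large subunit members were higher and 35 lower (median −1.66), 0 small subunit members higher and 23 lower (median −1.76), and 255 genes higher and 5414 lower; the summed level, IL-33 over PBS, was 0.457 for the large and 0.559 for the small subunit. Rplp2 turned to −1.01 and Rps9 to −0.039. That scaling moved the median of all genes to −1.08 and the share of higher calls to 4.50%, from 54.7% on the authors' scaling. Equal totals without Rn45s gave 1 higher and 28 lower large, 0 and 15 small subunit members, 942 and 3595 genes, sums of 0.635 and 0.806 and a higher share of 20.8%. Quantile normalization gave 0 and 9 small subunit members. With the Rn45s share as a covariate, 0 members of either subunit were called in either direction (medians −0.013 and 0.11), with 914 and 642 genes. This share was high only in IL-33 replicates 2 and 3, so the fit can hardly separate it from an effect of IL-33. IL-33 replicate 1 alone gave 2 lower large subunit members (median −0.0065; sum 1.06) and 0 higher and 1 lower small (median 0.17). edgeR gave 5 lower large and 2 higher and 1 lower small subunit members, DESeq2 3 and 1 small, no trend 5 lower large and 1 lower small, no filter 1 lower small, and a filter at 50 0 higher large and 1 lower small. Removing length and GC trends gave 2 higher and 6 lower small subunit members. Leaving out 7 paralogues gave 1 higher large, and leaving out Rps3, Rps14 and Rps9 a small subunit sum of 0.825; these 3 were chosen after the values were seen and all had positive fold changes, so leaving them out had to lower it. The causes were not tested.

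The deviations of same-numbered libraries had correlations of 0.046, 0.242 and −0.164, beside −0.281 to 0.237 for libraries of different numbers. With 3 libraries a group, these values cannot show whether the numbers pair the samples. With the replicate number as a block, 5 small subunit members were lower, and 8 with 2 higher when trends were also removed. With 8218303 to 10785521 reads a library, members with under 20 reads, such as Rps27l in IL-33 replicates 2 and 3, are limited by depth.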
